A study of Mus musculus with 4 samples.

Results

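The stronger CTCF peaks that splenic plasmablasts have and splenic B cells lack number 1305, out of 31086 plasmablast and 36381 B cell peaks in the deposited lists. They were selected on measured values. A plasmablast peak on chromosomes 1 to 19 was a member if its score exceeded the median of the whole plasmablast list (19.4). It also had to overlap no B cell peak by 1 bp and have no B cell peak midpoint within 500 bp. Of 15220 autosomal plasmablast peaks above that score, 8.57% met the rule, 13708 overlapped a B cell peak and 207 adjoined one without touching it. The percentage follows from the rule and serves below only as the value that single chromosomes are set beside. Throughout, "shared" means an overlap of at least 1 bp with a peak of the other list. A nearest B cell peak called unshared or B cell only lacks such an overlap, though a plasmablast peak may still adjoin it.

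CTCF is a zinc finger protein that binds an asymmetric DNA motif, blocks enhancers at insulators and, with cohesin, anchors chromatin loops. Most of its sites are occupied in many cell types, and a minority are occupied in some types and not in others. Plasmablasts are dividing antibody-secreting cells that arise when B cells are activated, a step that rewires much of the B cell gene programme.

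Both groups were spleen cells of C57BL/6 mice aged 6 weeks, and chromatin was precipitated with the same maker's CTCF antibody. The B cells were untouched by any treatment named in the labels and were the CD43- fraction of a bead separation. The plasmablasts were CD138+ cells sorted 3 days after 50 µg of lipopolysaccharide, a bacterial cell wall component that activates B cells, given behind the eye. There was 1 CTCF and 1 input library for each, the number of mice behind a library is not stated, and only the CTCF peak lists were analysed. Cell type, lipopolysaccharide treatment, isolation method and sequencing instrument (Genome Analyzer II for B cells, HiSeq 2000 for plasmablasts) all differ between the libraries and cannot be told apart. With 1 library per cell type no p-value is given. Intervals of shares are exact 95% binomial intervals over peaks and those of medians are 95% order-statistic intervals. Both cover counting error only. The lists hold positions and no expression values, so the cell types could not be checked against marker genes. Coordinates are on mm9 and 1-based, and no gene is named because no mm9 annotation was used here.

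The members were modest peaks of their own list. Their scores, which are the authors' values in an unstated unit, ran from 19.6 to 179.6 with a median of 30.3 and quartiles of 24.2 and 39.2. The shared peaks above the same threshold had a median of 39 (quartiles 28.1 and 52.9). Of the members, 379 (29%) lay above the upper quartile of the plasmablast list and 76 (5.82%) lay in its highest decile. At the threshold, 11 members had a score of 19.6, among them peaks on chromosome 11 at 120657680 to 120657858 and on chromosome 12 at 3437927 to 3438105. Just outside, 14 peaks that met the distance rule had a score of 19.4, such as those on chromosome 1 at 153237273 to 153237451 and on chromosome 10 at 69766074 to 69766252. The scores on the 2 sides of the threshold thus nearly touch.

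The share of members fell along the score range without a step. The 15220 stronger autosomal peaks were divided into deciles by score. In the lowest decile (scores 19.6 to 22.6) 14.8% were members (interval 13 to 16.6%), in decile 5 the share was 9.91% (8.44 to 11.5%) and in the highest decile (65.5 to 200.6) 1.94% (1.3 to 2.77%). Members with no B cell midpoint within 10 kb thinned out faster than those closer to one. The distant ones went from 8.04% of the lowest decile (6.75 to 9.48%) to 0.334% of the highest (0.108 to 0.777%). The closer ones went from 6.72% (5.54 to 8.06%) to 1.6% (1.03 to 2.37%). Among the strongest plasmablast peaks, a member near a B cell peak was therefore the commoner kind, with 24 against 5.

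**Figure D1:**
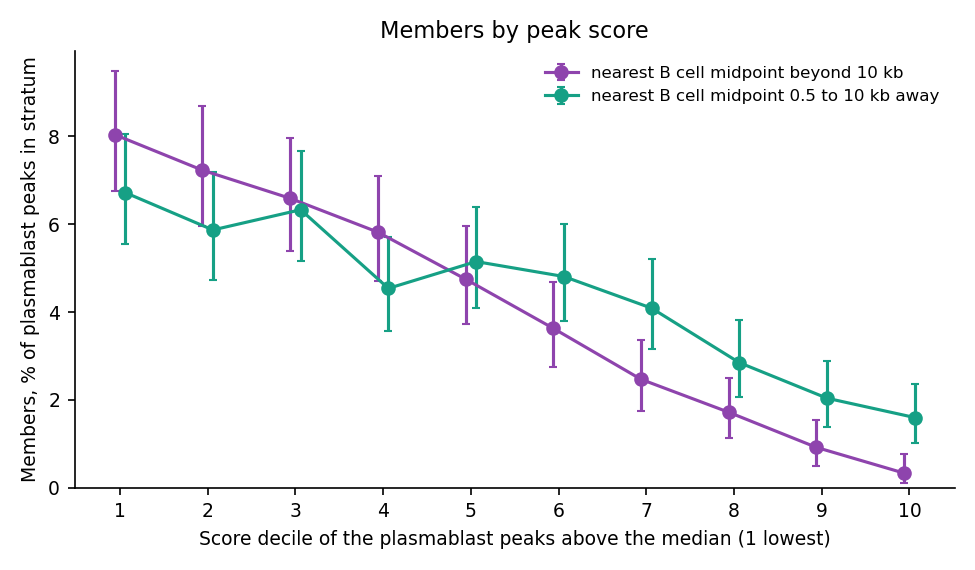
Percentage of autosomal plasmablast peaks that were members, in score deciles from the lowest (1) to the highest (10), for members beyond 10 kb of a B cell midpoint (purple) and from 0.5 to 10 kb away (green); bars are exact 95% binomial intervals. Both fall, from 8.04% to 0.334% and from 6.72% to 1.6%.

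About as many members lay near a B cell peak as far from one. The distance from a member's midpoint to the nearest B cell midpoint had a median of 9266 bp (interval 7659 to 10749), with quartiles of 2298 and 30348 bp. Within 2 kb were 294 members (22.5%, 20.3 to 24.9%), between 2 and 10 kb were 377, and beyond 10 kb were 634 (48.6%, 45.8 to 51.3%). Beyond 100 kb were 115 (8.81%, 7.33 to 10.5%). Scores declined slightly with distance, from a median of 33 within 2 kb to 28.8 beyond 10 kb and 26.7 beyond 100 kb. The plot of score against distance shows members over the whole range from 501 to 2711031 bp, and the 2 members that score above 100 both have a B cell only peak as their neighbour.

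**Figure D2:**
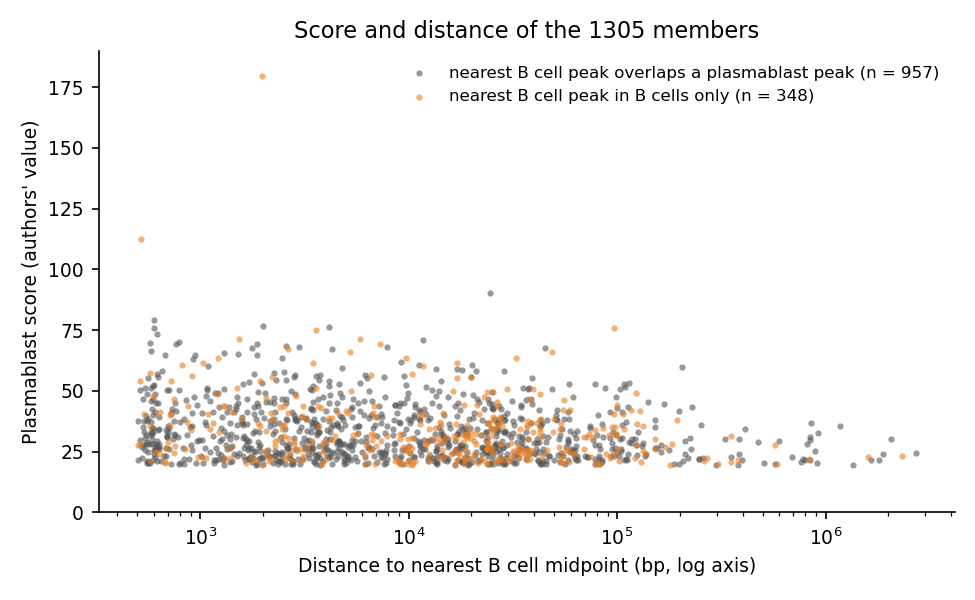
Each point is 1 of the 1305 members, with the distance to the nearest B cell midpoint in bp on a log axis and the plasmablast score on a linear axis; grey points have a nearest B cell peak that overlaps a plasmablast peak (957), orange points one that does not (348). Scores up to about 75 occur from 0.5 to 100 kb, and the farthest members lie low.

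The members were compared with the weaker plasmablast only peaks and with the stronger B cell only peaks. The 4346 plasmablast peaks at or below the median that met the same distance rule lay a median of 13417 bp from a B cell midpoint (12396 to 14359), with 12.1% beyond 100 kb (11.1 to 13.1%). In the mirrored selection, 991 autosomal B cell peaks above the B cell median had no plasmablast peak by the same rule, 5.55% of 17847. Their median distance to a plasmablast midpoint was 8072 bp (7249 to 8841), and the interval overlaps that of the members. Their tail was shorter, with 2.93% beyond 100 kb (1.97 to 4.18%), against 8.81% of the members. The 2 distances were taken to lists of unlike size, 31086 plasmablast and 36381 B cell peaks, and this was not adjusted for. At the close end the members were richer, with 11.8% within 1 kb (10.1 to 13.7%), against 6.63% of the weaker plasmablast only (5.91 to 7.41%) and 5.55% of the stronger B cell only peaks (4.21 to 7.16%).

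**Figure D3:**
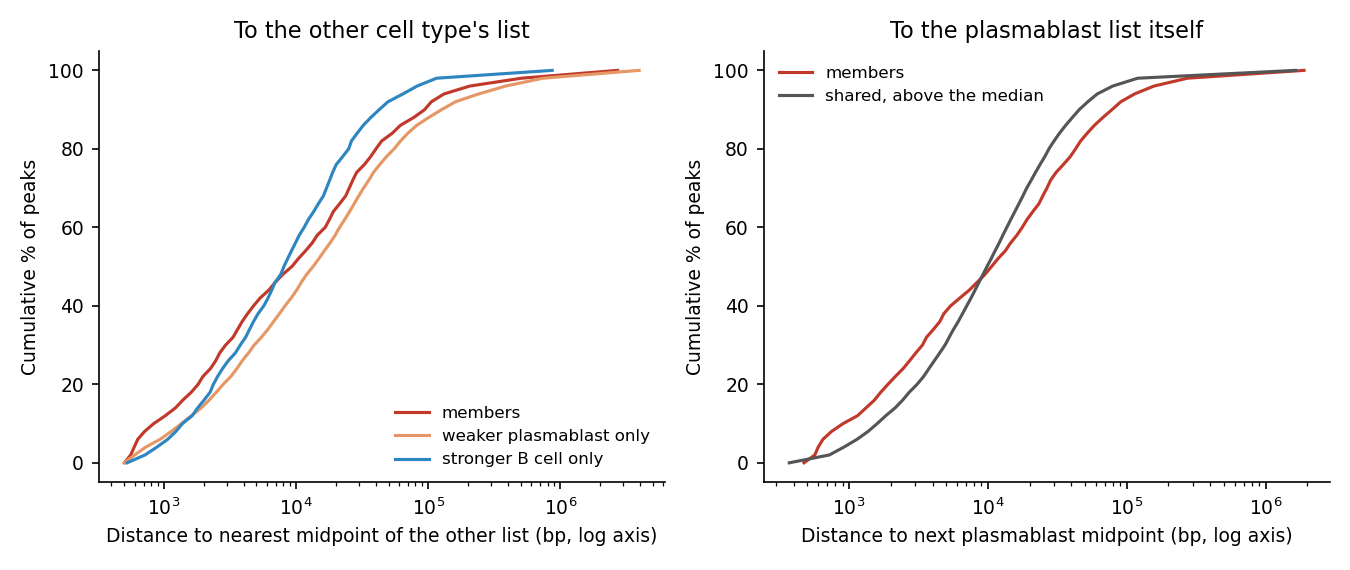
Cumulative percentage of peaks by midpoint distance in bp (log axes): left, to the nearest peak of the other cell type for members, weaker plasmablast only and stronger B cell only peaks; right, to the next plasmablast peak for members and for shared plasmablast peaks above the median. The members' curves rise first, with 11.8% (left) and 10.8% (right) within 1 kb, and are flatter further out.

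The excess at close range was a pile-up just past the 500 bp limit. The rule left out the 207 adjoining stronger peaks inside that limit, so the pile-up need not begin there. In steps of 100 bp, 60 members lay 501 to 600 bp from a B cell midpoint, 39 lay 601 to 700 bp away, 27 lay 701 to 800 bp away, and each later step up to 1500 bp held 11 to 16. The first 2 steps held 7.59% of the members, against 3.75% of the weaker plasmablast only and 1.72% of the stronger B cell only peaks. Counts of the 4346 weaker plasmablast only peaks also fell, from 88 to 75 and 50, with 33 to 45 in each later step. Of the 99 members in the first 2 steps, 84 had a nearest B cell peak that itself overlapped another plasmablast peak, and 86 had a plasmablast peak within 1 kb. That B cell peak was usually strong, with a median percentile of 84.8 in its list. Most of these members thus lay on the flank of a site listed in both cell types, and the other 15 lay beside a B cell only peak. The lists also differ in peak width, most commonly 179 bp in plasmablasts and 305 bp in B cells, which bears on what counts as an overlap. They differ too in how close peaks can be: the smallest midpoint distance was 372 bp in plasmablasts and 549 bp in B cells. At up to 549 bp there were 172 neighbouring pairs in plasmablasts and 1 in B cells, and within 1 kb there were 785 and 524. Of the members, 21 lay closer than 549 bp to a B cell midpoint. What part the resolution of the lists has in the pile-up was not tested.

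The members nearest to the limit show both settings. At chromosome 10 position 80041761 to 80041939 the member (score 21.7) lay 501 bp from a B cell peak at the 97.7th percentile, and the plasmablast peak at that shared site scored 71.9. At chromosome 1 position 133143092 to 133143270 a member of score 37.6 lay 506 bp from a B cell peak of score 143.6, where the plasmablast peak scored only 18.9. Because 3 members tied at 516 bp, 6 were as near as this, and the B cell neighbour was shared for 3 of them and in B cells only for 3. The latter include chromosome 12 position 70260645 to 70260823 (score 53.9). There the B cell peak scored 14.8, at the 3.77th percentile of its list. Just inside the limit, and so no members, were 2 peaks on chromosome 4 with B cell midpoints 492 bp away, at 131967871 to 131968049 (21.7) and 155143962 to 155144140 (34.5).

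Members within 2 kb of a B cell midpoint mostly stood next to a shared site. Among the 294 members this close, the nearest B cell peak was shared for 238 (81%, 76 to 85.3%) and in B cells only for 56. Beside the 238 shared sites, 127 members scored below the plasmablast peak at the site (53.4%, 46.8 to 59.8%) and 111 scored as high or higher. The median ratio of the scores was 0.942 (quartiles 0.597 and 1.72). Members had to score above 19.4 and the peaks at shared sites did not, so this ratio is set in part by the rule. The largest ratio was at chromosome 13 position 112532544 to 112532722, where the member scored 25.8 and the plasmablast peak at the shared site, 745 bp away, scored 3.9. At the other 56, the neighbouring B cell only peak was weak, with a median at the 21.8th percentile, against the 85.2nd for the shared neighbours. In 11 of the 56 it lay above the B cell median. Among these neighbours was the chromosome 12 peak at 114460284 to 114460588 (99.67th percentile). It overlapped no plasmablast peak, but the midpoint of an adjoining plasmablast peak of score 91 lay 250 bp away.

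The B cell peak nearest to a member was weaker the farther it lay, up to 100 kb. Its median percentile in the B cell list was 83.5 for members 0.5 to 1 kb away, 71.5 at 2 to 5 kb, 49.8 at 5 to 10 kb, 34.4 at 50 to 100 kb and 44.8 beyond 100 kb. Over all members the nearest B cell peak was shared in 73.3% of cases (70.8 to 75.7%), and 67.8% of all autosomal B cell peaks were shared. It was 81% within 2 kb (76 to 85.3%) and 68.1% beyond 10 kb (64.4 to 71.8%), with 72.2% beyond 100 kb (63 to 80.1%). The interval beyond 10 kb includes the value of the whole list, and that within 2 kb lies above it. The whole list is not matched for strength, however. The nearest B cell peaks had a median percentile of 79.6 within 2 kb and 40.8 beyond 10 kb. Of the 17847 autosomal B cell peaks above the B cell median, 16801 were shared. A comparison with B cell peaks of like strength was not made.

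Spacing within the plasmablast list largely followed the distance to B cell peaks. For 777 members (59.5%, 56.8 to 62.2%) the next plasmablast peak was the one on the nearest B cell peak, so the spacing is in part the distance of the rule measured again. Another plasmablast midpoint lay within 1 kb for 141 members (10.8%, 9.17 to 12.6%) and for 4.71% of the shared peaks above the median (4.36 to 5.07%). At 10 kb the shares were alike, 49% (46.3 to 51.8%) and 50.4% (49.6 to 51.3%). Beyond 100 kb stood 6.82% of the members (5.51 to 8.33%) and 2.58% of the shared peaks (2.32 to 2.85%). The members were thus both more often very close to another plasmablast peak and more often very isolated than shared peaks. Neither trait was particular to them. Among the weaker plasmablast only peaks, 6.74% had one within 1 kb (6.01 to 7.53%) and 10.7% stood beyond 100 kb (9.84 to 11.7%). For adjoining peaks above the median these shares were 29.5% (23.4 to 36.2%) and 0.966% (0.117 to 3.45%). Of the 141 close neighbours of members, 124 were shared peaks, 14 were weaker plasmablast only peaks, 3 adjoined a B cell peak and none was a member (exact interval up to 2.58%). In 123 of the 141 the neighbour was the plasmablast peak on the nearest B cell peak.

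Members rarely stood side by side. The next member lay a median of 403321 bp away, and 267 members (20.5%, 18.3 to 22.8%) had another within 100 kb. For the stronger B cell only peaks that share was 23.7% (21.1 to 26.5%), so the intervals overlap. No member had another within 1 kb, and 54 (4.14%) had one within 10 kb. Joined by gaps of at most 10 kb, the members formed 1251 single sites, 23 pairs, 1 run of 3 and 1 run of 5. Between 1 B cell peak and the next, 1134 members (86.9%) were the sole member of their stretch, 75 stretches held 2 members and 7 held 3. These counts include 6 members that lay outside the outermost B cell peaks.

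The run of 5 was on chromosome 12, which carries the immunoglobulin heavy chain locus, from 114455590 to 114462705, though its place relative to the genes was not determined. The 5 members scored 52, 76.7, 60.5, 54.1 and 40.8 in order of position, and lay 595 to 2180 bp from the nearest B cell midpoint. The 2 B cell peaks inside the run were among the strongest of their list, at the 97.5th and 99.7th percentiles. The run of 3 was on chromosome 6 from 129198382 to 129210344, where members of score 34.5, 50.2 and 41.3 surrounded a shared peak of score 32. The pair with the highest summed score was on chromosome 2, with members at 102924788 to 102924966 (61.6) and 102926699 to 102926877 (44). A single weak B cell peak lay between them, with a score of 16.7 at the 6.77th percentile, 1037 and 874 bp away.

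Windows of 1 Mb that held many members were few. Of 893 windows with a member, 810 held 1 or 2 and 19 held 4 or more. The 2 richest held 6 each. On chromosome 4 from 88000001 to 89000000, 6 of 21 plasmablast peaks were members, with scores from 24.4 to 55.5, and 17 B cell peaks were listed. Their nearest B cell peaks were strong, at the 85.9th percentile or above, 964 to 44377 bp away. On chromosome 1 from 152000001 to 153000000, 6 of 17 plasmablast peaks were members, with scores from 21.4 to 39.2. Here 4 of the 6 lay 63394 to 169052 bp from a B cell midpoint, and 3 had a weak nearest B cell peak (17.6, the 8.55th percentile). Next came 2 windows with 5 members each, that of the chromosome 12 run and chromosome 2 from 131000001 to 132000000 (5 of 30 plasmablast peaks). The windows named depend on where the windows start. Shifted by 500 kb, the richest was instead chromosome 12 from 113500001 to 114500000, with 6 of 57 plasmablast peaks.

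The strongest member stood alone in the plasmablast list. At chromosome 17 position 39982176 to 39982354 it scored 179.6 (99.98th percentile), and the top B cell peak of the whole genome lay 1974 bp away with no plasmablast peak on it. No other plasmablast peak lay within 500 kb, and the next was 978766 bp away. Whether repeated sequence raises the reads here was not tested. At chromosome 2 position 103404874 to 103405052, the next strongest member (112.7, 99.8th percentile) lay 519 bp from a B cell only peak of middling score (43.5, 39.5th percentile). These 2 members thus paired with a B cell peak that had no plasmablast peak of its own, at a distance too long for the intervals to touch.

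Of the 15 strongest members, 6 lay within 1 kb of a B cell midpoint, 9 within 2 kb and 3 beyond 10 kb, and the nearest B cell peak was shared for 9. Flanking a strong shared site were 4 members. The first was on chromosome 17 at 5402178 to 5402356 (score 79.2), the next on chromosome 5 at 123582898 to 123583076 (75.7), and the others on chromosome 15 at 89204507 to 89204685 (73.5) and on chromosome 2 at 93039124 to 93039302 (69.8). They lay 598, 600, 622 and 572 bp from B cell peaks at or above the 94.5th percentile. The plasmablast peak at each of those sites scored 57, 70.7, 29.6 and 59.5, below the member in each case, though these members were picked for their high scores. At chromosome 7 position 19654168 to 19654346 the member scored 70.3, and the shared site 788 bp away scored 26.2 in plasmablasts.

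Far from B cell peaks, 3 of the 15 stood out. At chromosome 9 position 96473778 to 96473956 the score was 90.3, with the nearest B cell midpoint 24643 bp away. Chromosome 1 at 141164523 to 141164701 scored 76, with the nearest B cell midpoint 96380 bp away and the next plasmablast peak 105014 bp away. On chromosome 2 at 144113001 to 144113179 the score was 70.9 and the distance 11774 bp. Their nearest B cell peaks were weak or middling, at the 47.8th, 15.2nd and 18.4th percentiles. The remaining 5 were on chromosomes 12 (114458184 to 114458362, in the run of 5, and 32652542 to 32652720), 11 (88946016 to 88946194), 7 (108522813 to 108522991) and 10 (34046641 to 34046819). They scored 71.2 to 76.7 and lay 1538 to 5872 bp from a B cell midpoint.

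The 5 most distant members scored at or below the median of all members and stood in regions with few peaks of either list. The farthest was chromosome 15 at 21815055 to 21815233 (score 24.6), 2711031 bp from a B cell midpoint. Next came chromosome 5 at 83869374 to 83869552 (23.3, 2331832 bp) and chromosome 8 at 51377609 to 51377787 (30.3, 2069799 bp). Chromosome 2 at 88196552 to 88196730 (23.9) had no B cell midpoint within 1891539 bp and no plasmablast midpoint within 1891561 bp. The last of these was chromosome 14 at 110273525 to 110273703 (21.5), 1800432 bp from a B cell midpoint. All 5 had at most 2 other plasmablast peaks within 500 kb. Of 319 autosomal stretches over 1 Mb between neighbouring B cell midpoints, 78 held a member. There were 35667 such stretches of any length, and 1216 stretches held a member, those outside the outermost B cell peaks included. A longer stretch has more room for any peak, so the 2 counts do not single out members. The 7 stretches with 3 members, singled out after their values were seen, ran from 128.2 to 5127 kb. The longest, on chromosome 16 from 70569449 to 75696477, held 8 unshared plasmablast peaks, of which the 3 members scored 21.5 to 23.

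Members made up a larger share of the stronger plasmablast peaks where plasmablast peaks were sparse, and mostly so for the distant ones. A member had a median of 16 other plasmablast peaks within 500 kb (quartiles 10 and 24), against 24 (16 and 34.25) for a shared peak above the median. The weaker plasmablast only peaks stood in similarly sparse surroundings, with a median of 18 (10 and 28). In quintiles of this count, members were 16.7% of stronger peaks in the sparsest (0 to 13 peaks, interval 15.5 to 18.1%) and 4.65% in the densest (38 to 78, 3.91 to 5.49%). Members beyond 10 kb of a B cell midpoint fell from 11.5% (10.4 to 12.7%) to 0.7% (0.428 to 1.08%), and distances to any peak are by construction longer where peaks are sparse. Members within 2 kb kept near one level, at 1.84% in the sparsest quintile (1.4 to 2.38%) and 1.96% in the densest (1.48 to 2.54%). The order also held among peaks above the upper quartile of score, with 10.2% in the sparsest quintile (8.63 to 12%) and 2.32% in the densest (1.66 to 3.16%).

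**Figure D4:**
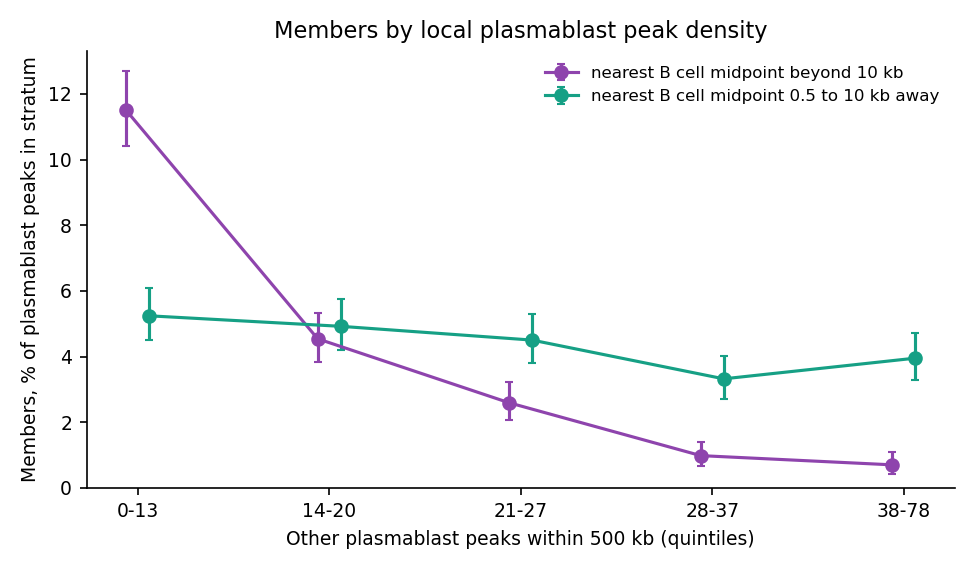
Percentage of autosomal plasmablast peaks above the median score that were members, in quintiles of the number of other plasmablast peaks within 500 kb, for members beyond 10 kb of a B cell midpoint (purple) and from 0.5 to 10 kb away (green); bars are exact 95% binomial intervals. The distant members fall from 11.5% to 0.7%, the closer ones from 5.24% to 3.95%.

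Every autosome held members, from 36 on chromosome 19 to 128 on chromosome 1. As a share of the stronger plasmablast peaks they were most frequent on chromosomes 3 (12.7%, 10.3 to 15.3%) and 1 (12.4%, 10.4 to 14.5%). They were least frequent on chromosomes 8 (5.73%, 4.21 to 7.6%) and 7 (6.14%, 4.78 to 7.75%). The intervals of the former pair do not overlap those of the latter, while those of the others, apart from chromosomes 4, 6 and 11, include the value over all autosomes. Over the 19 autosomes the share fell with plasmablast peaks per Mb (Spearman's rho -0.70, Pearson's r -0.69, a description across chromosomes of 1 pair of libraries). That share is taken over peaks and not over length. Members per Mb ran from 0.351 on chromosome 8 (12.3 plasmablast peaks per Mb) to 0.69 on chromosome 11 (20.5, the densest). The sparsest, chromosome 3 (9.32), had 0.595. Chromosomes also differed in the kind of member: 30.3% of those on chromosome 7 lay beyond 10 kb of a B cell midpoint, against 64.1% on chromosome 16. With each chromosome cut into 5 equal parts from the first to the last listed plasmablast peak, members were spread more evenly than shared peaks. The last part held 23.8% of the members (21.5 to 26.2%) and 30.6% of the shared peaks (29.8 to 31.4%), and the first part held 17.4% (15.4 to 19.6%) and 14.8% (14.2 to 15.4%). Within 1 Mb of the first or last listed peak of a chromosome lay 28 members (2.15%).

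**Figure D5:**
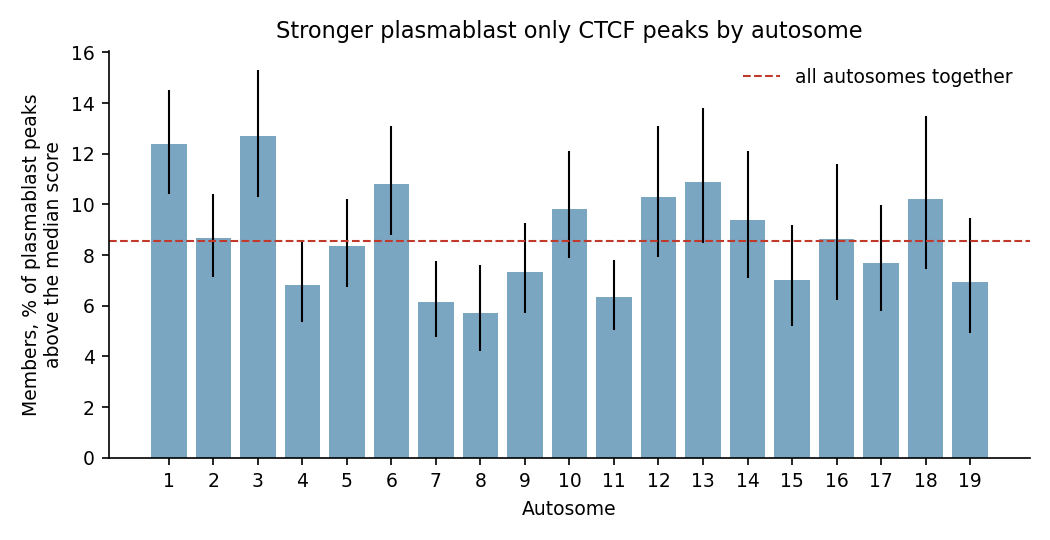
Members as a percentage of plasmablast peaks above the median score on each autosome; error bars are exact 95% binomial intervals and the dashed line is the value over all autosomes (8.57%). Chromosomes 3 and 1 are highest (12.7% and 12.4%), chromosomes 8 and 7 lowest (5.73% and 6.14%).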

How the data were processed

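CTCF chromatin immunoprecipitation sequencing gave 1 peak list per cell type, and Bowtie, HOMER and mm9 are named in the submitters' processing notes. Versions, peak thresholds and how the input served are not stated there. The deposited score of each peak has no stated unit, so scores served to order peaks inside 1 list and were never compared between lists, and sequencing depth is unknown. Positions were read as BED, with 1 added to each start, and distances are between midpoints. Ties share a mean percentile.

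The members and comparisons were chosen with earlier results of these data known. Peaks were named by rank: the 15 strongest, the 5 farthest, the 5 nearest, those at the thresholds, and the 3 richest windows and runs, and others are named as examples chosen after seeing their values. Shares have exact (Clopper-Pearson) intervals and medians order-statistic intervals, both at 95%. The selection recovered isolated plasmablast peaks that had been removed from a slightly shifted copy of their own list, used in place of the B cell list. The outcome followed from how the copy was made. It checks the code only and does not try peaks near the 500 bp limit. For the overlap part of the rule alone, bedtools 2.31.1 gave the same 1512 stronger autosomal plasmablast peaks without overlap. Python 3.11.15, numpy 2.4.6, pandas 2.3.3, scipy 1.17.1 and matplotlib 3.10.9 were used. A CTCF motif search and peak sequences needed an mm9 genome and were not analysed here. Alternatives changed the score threshold, distance rule, chromosomes, B cell list and neighbour distance.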

Additional observations from a re-analysis of the deposited data

How the results depend on the processing

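Of 47 alternatives, 28 stayed within the interval (or within 1.5 times the count) of the value reported and 19 moved. Adding chromosome X, leaving out chromosome 1, or taking the autosomal median as threshold moved none of the values. With scores above the upper quartile there were 379 members, with a median distance to B cell midpoints of 4832 bp, 37.7% beyond 10 kb, 57.3% with a plasmablast peak within 10 kb and 7.65% with another member within 100 kb. With only B cell peaks above their own median counted there were 2971 members, at a median of 28810 bp, with 71.4% beyond 10 kb. Of these, 42.4% had a plasmablast peak within 10 kb, 37.6% had another member within 100 kb, and 5.42% had an unshared nearest B cell peak, against 26.7% in the main selection. With the overlap rule alone the median distance was 5347.5 bp, 41.9% lay beyond 10 kb and 33.2% had an unshared nearest B cell peak. With no B cell midpoint allowed within 1 kb these members lay at a median of 13071 bp, with 55.1% beyond 10 kb and 43.4% with a plasmablast peak within 10 kb. A narrower neighbour distance lowers the shares by construction, to 20.9% for a plasmablast peak within 2 kb and 4.14% for a member within 10 kb. The motif share was not run, since it needed an mm9 genome. No paired analysis was possible because each cell type has 1 library. The depth of the libraries is not known, and a site that the B cell list lacks may still be bound in B cells below its calling threshold.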

Other observations

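The number in each peak's name gives a second order of the peaks on a chromosome, and what it ranks is not stated. Among the members its order and that of the score had a Spearman's rho of 0.95 across peaks. For 12 members (0.92%, exact 95% binomial interval 0.476 to 1.6%) the place by name was at least 2 times the place by score, as it was for 2.3% of shared peaks above the median (2.05 to 2.56%). The gap is a ratio of places, so peaks placed high by score can reach a large one more easily. That sets in part the lower share among the members, which score lower than the shared peaks. It also sets in part that several of the strongest members had the largest gaps. Chromosome 7 at 19654168 to 19654346 was at place 56 by score and 234 by name, chromosome 17 at 5402178 to 5402356 at 24 and 93, and chromosome 15 at 89204507 to 89204685 at 31 and 115. Each of these 3 had another plasmablast peak 600 to 767 bp away. Not all had one: chromosome 17 at 30591886 to 30592064 (score 66), with the next plasmablast peak 104660 bp away, was at 65 and 234.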
